A study of Homo sapiens with 6 samples.

Results

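Zinc finger proteins of the C2H2 class bind DNA or RNA through small zinc-held loops, and the symbol ZNF followed by a number is the default human gene name for proteins built from them. The largest family carries a KRAB box at the N terminus, which recruits the corepressor TRIM28 (KAP1) and the H3K9 methyltransferase SETDB1 to silence chromatin, with transposable elements as their best-known targets. Many of these genes lie in tandem clusters on chromosome 19, while other ZNF proteins without a KRAB box serve in transcription complexes, RNA processing, ribosome surveillance or the mitotic spindle. The genes described here are the well-expressed ZNF genes, defined as rows with a symbol of ZNF and a number, with no suffix, and a mean of at least 10 counts per 1000000 (CPM) of the column total over all 6 libraries. This gave 209 genes of 478 with such a symbol and of 60675 rows in all. The genes were thus selected on their mean level over the 6 libraries, and that level is no finding. The rule made no use of the contrast between the compounds.

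The study was set up to compare inhibitors of KDAC6 (HDAC6), a mostly cytoplasmic lysine deacetylase. HT1080, an established human fibrosarcoma line with the genotype given as WT, was exposed to SW-138 or to SW-113, each at 1 µM for 48 h, with 3 libraries per compound made from total RNA depleted of ribosomal RNA. Both compounds are known here by code name only. All groups used here received an inhibitor and none a vehicle, so the comparison is of a compound with its counterpart, and "higher" and "lower" mean in SW-138 cells relative to SW-113 cells. Nothing in the labels ties a replicate to a culture of its own, and the p-values accordingly reflect variation among these libraries that could be technical.

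Library totals ran from 32771670 to 50871623 estimated read counts. The smallest was SW-138 replicate 2, an outlier on principal component 1 with a score of 39.08, beside scores between -24.05 and 5.88 for the rest. Of the mesenchymal markers, VIM averaged 3620 CPM, FN1 1220 CPM and COL6A1 157 CPM, while COL1A1 was at 1.0 CPM and THY1 at 0.0638 CPM. The epithelial keratins KRT8 and KRT18 averaged 221 and 236 CPM, and EPCAM, CDH1, PTPRC and PECAM1 each averaged at most 0.286 CPM. All 209 ZNF genes passed edgeR's filter on low counts, and the lowest count of any of them in a library was 312. Just inside the threshold stood ZNF761, ZNF720 and ZNF362 at means of 10.0, 10.09 and 10.32 CPM, and just outside it ZNF383, ZNF32 and ZNF606 at 9.871, 9.773 and 9.709 CPM.

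Of the 209 genes, 208 are protein coding in GENCODE and ZNF883 is a transcribed pseudogene. They held a median of 10 C2H2 fingers by a pattern search of the translated coding sequence, with ZNF462 highest at 33. A KRAB box was found in 104 and not in 104 others, and a SCAN box, a dimerisation domain, in 14. The search can miss divergent boxes. Chromosome 19 carried 79 of them, chromosome 16 carried 22 and chromosome 1 carried 13. Their promoters, the 250 bases before the start in RefSeq on GRCh38.p14, were found for 184 genes. The ETS core CCGGAAG, read on both strands, occurred in 36.4% of these promoters (67 of 184), in 8.82% of all 27305 promoters and in 18.5% of 7362 promoters of genes at 10 CPM or more. The letters ACTACAA, the start of the sequence bound by ZNF143, occurred in 8.7% of the ZNF promoters, 2.64% of all and 4.09% of those at 10 CPM or more. The GC box GGGCGG occurred in 64.7%, 42.3% and 69.5% of the same groups, and CCAAT in 41.3%, 33.0% and 35.4%. These are counts of letters and not of bound sites.

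The promoters of 4 genes that differed between the compounds are shown to set a pair of higher genes, ZNF217 and ZNF281, beside a pair of lower ones, ZNF580 and ZNF358. Each line holds the 120 bases before the first start listed in RefSeq (GRCh38.p14), 5′ to 3′ on the gene's strand. Capitals mark GC boxes (GGGCGG or its complement), the ETS core in ZNF580 (its complement) and the letters ACTACAA in ZNF358. The stretches are at chr20:53593840-53593959 (minus strand) for ZNF217, chr1:200410037-200410156 (minus) for ZNF281, chr19:55640882-55641001 (plus) for ZNF580 and chr19:7515983-7516102 (plus) for ZNF358.
ZNF217: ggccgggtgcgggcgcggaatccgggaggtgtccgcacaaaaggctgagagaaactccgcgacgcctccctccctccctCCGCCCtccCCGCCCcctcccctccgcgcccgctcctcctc
ZNF281: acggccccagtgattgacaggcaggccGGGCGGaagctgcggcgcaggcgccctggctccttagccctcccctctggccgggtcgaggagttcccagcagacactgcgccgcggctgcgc
ZNF580: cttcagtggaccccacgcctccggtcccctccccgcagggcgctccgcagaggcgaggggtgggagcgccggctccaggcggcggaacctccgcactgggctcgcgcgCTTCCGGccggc
ZNF358: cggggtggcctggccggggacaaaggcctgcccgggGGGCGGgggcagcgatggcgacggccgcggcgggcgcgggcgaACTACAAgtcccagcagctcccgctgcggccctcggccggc
GC made up 73.3% of the shown bases of ZNF281 and slightly more of those of ZNF217, against 78.3% and 80.8% of those of ZNF580 and ZNF358. Of the other called genes, ZNF185 (higher) and ZNF503 (lower) had 51.7% and 58.3%, below the median of 62.8% over the 250 bases of the 184 ZNF promoters, and ZNF512 and ZNF83 (both higher) had 64.2% and 75.8%.

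The level of ZNF mRNAs differed little between the compounds. By the quasi-likelihood test of edgeR, at a Benjamini-Hochberg adjusted p under 0.05 over 16905 genes, 9 of the 209 genes passed, 6 higher and 3 lower. That is 4.31%, below the 6.82% of all tested genes that passed and the 10.3% of all tested genes at 10 CPM or more. By direction, 2.87% of the ZNF genes were higher and 1.44% lower, against 2.76% and 4.06% of all tested genes. Log2 fold changes of the 209 genes ran from -0.29 to 0.32 with an SD of 0.114, where genes at 10 CPM or more had an SD of 0.169. Not one of the ZNF genes differed by more than 1.5-fold, as did 64 of 9494 genes at that level. For 208 of the 209 genes (99.5%) the 95% interval of the difference also lay within 1.5-fold, against 96.9% of all genes at 10 CPM or more. The exception was ZNF469, a gene whose loss causes brittle cornea syndrome, at -0.24 (95% interval -0.67 to 0.18). It varied most among the 209, with 24.34, 15.03 and 24.79 CPM in SW-138 libraries and 31.44, 20.59 and 24.36 CPM in SW-113 libraries. CPM values of single genes here and below are scaled by TMM factors. In these bulk samples fewer expressing cells and less RNA per cell cannot be told apart.

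**Figure D1:**
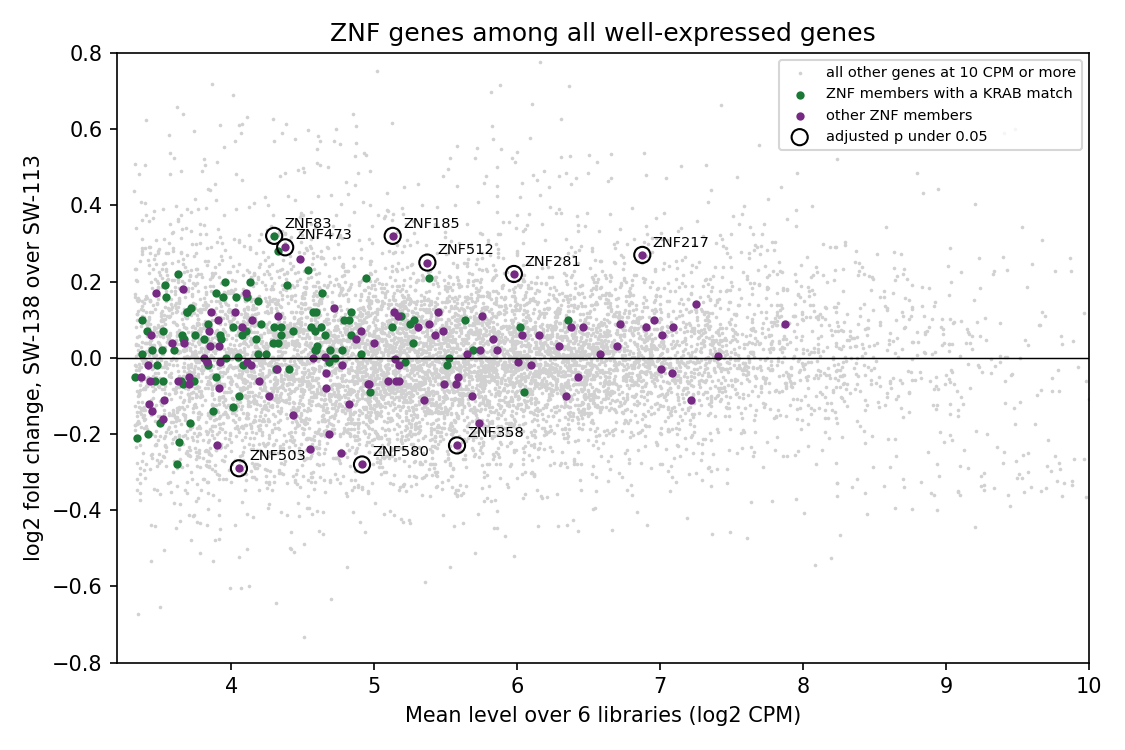
Log2 fold change (SW-138 over SW-113, vertical axis) against mean level (log2 CPM, horizontal axis) for the 209 ZNF genes, with a KRAB match in green and without in purple, over all other genes at 10 CPM or more in grey. Genes beyond the axes are not drawn. The ZNF genes lie between -0.29 and 0.32, and the 9 that passed the test are ringed and named.

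Among the 9, ZNF217 had the smallest p. ZNF217, an oncogene product that works with the CoREST and CtBP corepressors, had 130.7, 126.8 and 126.7 CPM in SW-138 libraries, against 111.3, 101.9 and 106.4 CPM in SW-113 libraries. All SW-138 libraries lay above all SW-113 libraries. The log2 fold change was 0.27 ± 0.05 (SE; 95% interval 0.16 to 0.38; adjusted p = 0.0136, edgeR quasi-likelihood test). The gene is at GRCh38 chromosome 20, 53567065 to 53609907.

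ZNF281, a transcription factor known from pluripotency and epithelial to mesenchymal transition, had 68.52, 66.9 and 67.53 CPM in SW-138 libraries, against 57.55, 58.01 and 59.14 CPM in SW-113 libraries. The groups were far apart for their spread, and the pooled coefficient of variation, 1.31%, was the lowest of the 209. Its log2 fold change was 0.22 ± 0.05 (adjusted p = 0.0221, edgeR quasi-likelihood test). The promoter shown above holds 1 GC box in these 120 bases, and that of ZNF217 holds 2.

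ZNF512 had 44.45, 46.07 and 44.18 CPM in SW-138 libraries, against 38.48, 37.49 and 37.58 CPM in SW-113 libraries (log2 fold change 0.25 ± 0.05, adjusted p = 0.018, edgeR quasi-likelihood test). No value of either compound reached the range of the other. ZNF473 (ZFP100), a subunit of the machinery that trims the 3′ end of replication-dependent histone mRNAs, had 21.96, 22.43 and 24.19 CPM in SW-138 libraries, against 19.04, 19.04 and 17.94 CPM in SW-113 libraries. It was higher by 0.29 ± 0.07 (adjusted p = 0.0269, edgeR quasi-likelihood test). ZNF185, a LIM-domain protein of the actin cytoskeleton that is no C2H2 protein, had 39.9, 37.58 and 38.99 CPM in SW-138 libraries, against 32.58, 26.98 and 33.8 CPM in SW-113 libraries. SW-113 replicate 2 was the low value there, and the log2 fold change was 0.32 ± 0.08 (adjusted p = 0.0423, edgeR quasi-likelihood test).

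ZNF83, on chromosome 19, was the sole gene of the 9 with a KRAB match, in a search that can miss divergent boxes. It had 21.29, 22.99 and 21.29 CPM in SW-138 libraries, against 17.93, 18.01 and 16.59 CPM in SW-113 libraries. The groups did not overlap, and it was higher by 0.32 ± 0.07 on the log2 scale (adjusted p = 0.0202, edgeR quasi-likelihood test). RSEM shares reads among near-identical genes, and the estimates for ZNF83 and for ZNF512 were not whole numbers in every library, so their values are less certain than those of ZNF217, ZNF281, ZNF473 and ZNF185, which were whole in all 6.

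The lower genes were ZNF503, ZNF580 and ZNF358. ZNF503, a developmental repressor of the NET family, had 14.51, 15.68 and 14.69 CPM in SW-138 libraries, against 17.95, 18.73 and 17.99 CPM in SW-113 libraries (log2 fold change -0.29 ± 0.07, adjusted p = 0.0297, edgeR quasi-likelihood test). Its relative ZNF703 had 46.2, 41.81 and 42.88 CPM in SW-138 libraries and 46.69, 43.37 and 47.59 CPM in SW-113 libraries, with overlap (log2 fold change -0.07, 95% interval -0.21 to 0.06). The family thus held a called and an uncalled member, and the difference between them was not tested.

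ZNF580, at chromosome 19, 55635016 to 55643469, had 25.73, 28.23 and 27.83 CPM in SW-138 libraries, against 33.21, 34.72 and 31.12 CPM in SW-113 libraries. ZNF358, also on chromosome 19, had 45.77, 42.37 and 43.8 CPM in SW-138 libraries, against 50.22, 54.81 and 49.65 CPM in SW-113 libraries. In both genes every SW-138 library lay below every SW-113 library. They were lower by -0.28 ± 0.07 (adjusted p = 0.0305) and -0.23 ± 0.06 (adjusted p = 0.044) in edgeR's quasi-likelihood test. Estimates of these 3 lower genes were not whole numbers in every library. ZNF581 (55635459 to 55645622) overlaps ZNF580 on the same strand and had 22.94, 26.3 and 25.47 CPM in SW-138 libraries. Its SW-113 libraries had 27.13, 33.05 and 28.17 CPM. Its groups did not overlap, but it did not pass (log2 fold change -0.25, adjusted p = 0.118, edgeR quasi-likelihood test). Its estimates were not whole in every library, and whether ZNF580 and ZNF581 share reads was not tested.

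**Figure D2:**
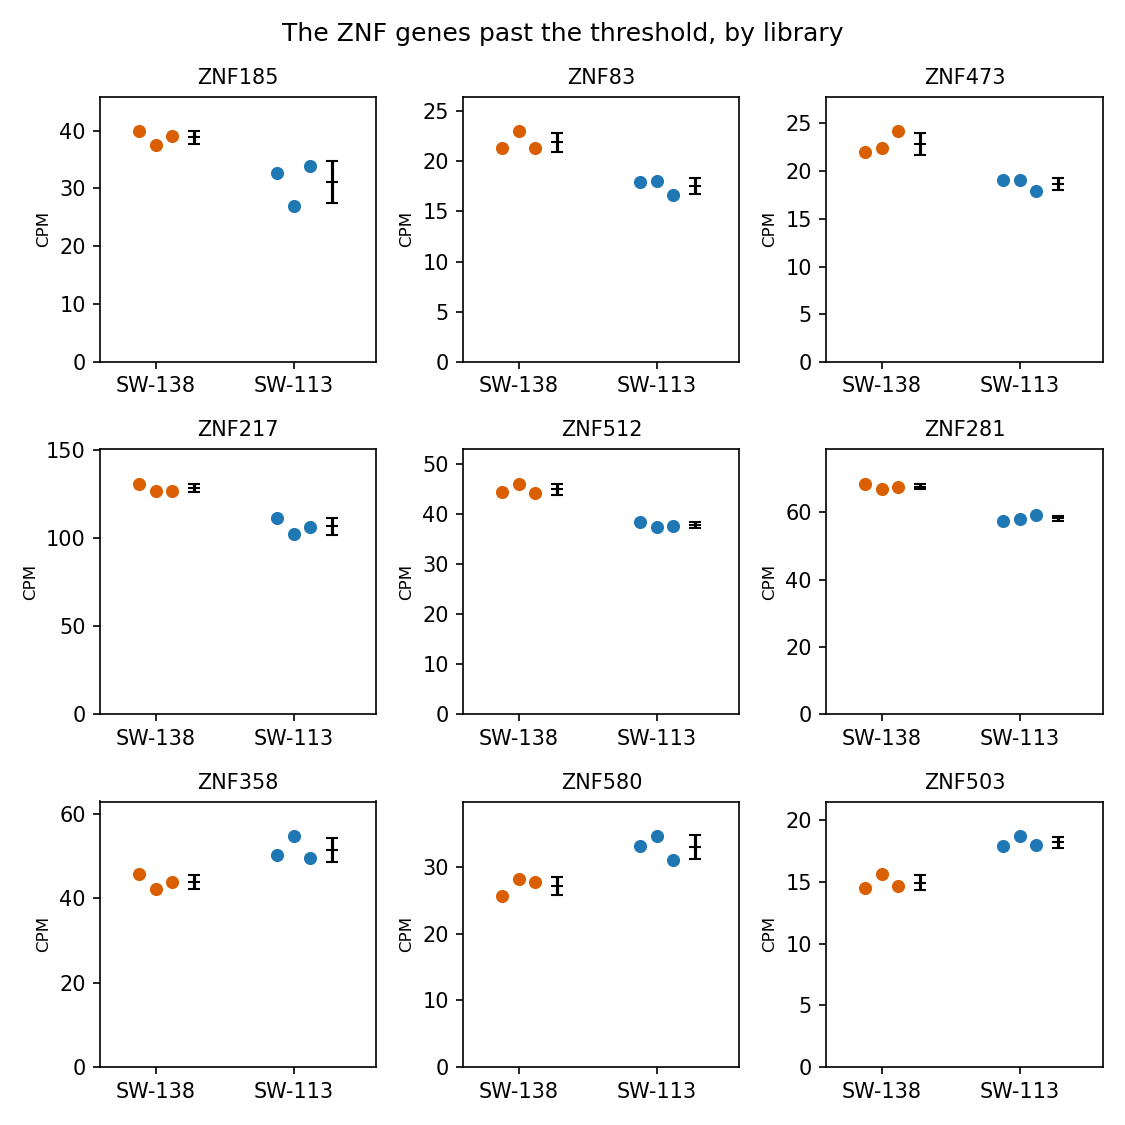
CPM (TMM scaled, vertical axes from 0) of the 9 ZNF genes past the threshold in each library, SW-138 in orange and SW-113 in blue, with the mean and SD of 3 libraries beside the points. In all 9 the libraries of the compounds do not overlap. The distance between group means is small beside the level itself, as in ZNF217 with means of 128.1 and 106.5 CPM.

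None of the 9 genes kept its call in all 6 fits that each left out a library. Without SW-138 replicate 1, SW-113 replicate 2 or SW-113 replicate 3, 0 of the ZNF genes passed, and without SW-113 replicate 1 ZNF217 alone did. Without SW-138 replicate 3 there were 4, and without the outlying SW-138 replicate 2 there were 10, of which 8 were among the 9. ZNF217 kept its call in 3 of the 6 such fits and ZNF358 in 0. With total-count scaling the 3 lower genes lost their calls. With the trends of fold change on transcript length and GC removed, ZNF473 was at 0.25 (adjusted p = 0.0533), ZNF503 at -0.27 (0.0796) and ZNF580 at -0.23 (0.0589) in edgeR's test, folds close to those above but past the threshold no longer. ZNF358 was then at -0.14 (adjusted p = 0.256), and it also missed the threshold with DESeq2 size factors (0.0516), with upper-quartile scaling (0.0538) and with trends removed and a replicate block (0.134). The sign of all 9 was the same in these fits. At an unadjusted p under 0.05 stood 29 of the 209 genes (13.9%), against 22.3% of all tested genes and 29.4% of those at 10 CPM or more.

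Groups that did not overlap were found for 49 of the 209 genes (23.4%), 34 higher and 15 lower, against 27.9% of all tested genes (12.4% higher, 15.4% lower). Of the 9494 genes at 10 CPM or more, 1324 were higher and 1958 lower with no overlap. Next below the threshold were ZNF300, ZNF367, ZNF550, ZNF124, ZNF668 and ZNF511, the 6 genes with adjusted p between 0.05 and 0.1, named after their values were seen. ZNF300 had 23.59, 22.46 and 19.9 CPM in SW-138 libraries and 18.34, 17.91 and 18.21 CPM in SW-113 libraries (adjusted p = 0.0511, edgeR quasi-likelihood test). ZNF367 had 23.88, 23.2 and 25.85 CPM in SW-138 libraries and 20.45, 19.1 and 21.48 CPM in SW-113 libraries (adjusted p = 0.0547, edgeR quasi-likelihood test). The libraries did not overlap in either gene. Both lay at the threshold: among 11 fits with other settings and all libraries, ZNF300 passed as higher in 8 (adjusted p 0.0161 to 0.0566) and ZNF367 in 9 (0.0141 to 0.0959), and of 6 fits without a library each passed in 1.

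The partners of chromatin and transcription complexes numbered 15. ZNF217 and ZNF281 were higher and none was lower (13.3%, against 10.3% of all tested genes at 10 CPM or more), and the median log2 fold change was 0.011, beside 0.007 over all tested genes. ZNF143, an activator bound at many promoters, had 16.97, 18.26 and 17.24 CPM in SW-138 libraries and 16.68, 17.97 and 18.39 CPM in SW-113 libraries, with full overlap. ZNF410, known for driving the NuRD gene CHD4, averaged 50.43 ± 2.26 CPM in SW-138 cells and 50.03 ± 1.47 CPM in SW-113 cells (SD, n = 3 each; log2 fold change 0.01, 95% interval -0.11 to 0.13). ZNF532, ZNF592 and ZNF687, which form a complex with ZMYND8, had log2 fold changes of 0.06, 0.02 and -0.06. ZNF644, a partner of the G9a and GLP methyltransferases, was at 0.08, and ZNF827, which brings NuRD to telomeres, at 0.12 (95% interval -0.01 to 0.26). For ZNF148 (ZBP-89), ZNF384, ZNF462 and ZNF609 the differences were -0.04, -0.06, 0.11 and -0.05. None of these passed the test.

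Of the RNA, ribosome and spindle proteins, 11 genes, 0 passed edgeR's test, against 10.3% of all tested genes at 10 CPM or more. Their log2 fold changes ran from -0.11 to 0.10 with a median of 0.005. This group holds the most abundant ZNF mRNA per length, ZNF207 (BuGZ), which carries BUB3 to kinetochores, at 123 CPM per kb of transcript. The next were ZNF598, the ubiquitin ligase of collided ribosomes, at 50.1 CPM per kb, and ZNF622, the homolog of a yeast factor of large-subunit maturation, at 37.7 CPM per kb. ZNF207 had 225.3, 270.8 and 231.0 CPM in SW-138 libraries and 217.0, 229.5 and 234.8 CPM in SW-113 libraries. SW-138 replicate 2 was its high value and the groups overlapped. ZNF598 had 166.9, 164.1 and 176.9 CPM in SW-138 libraries and 167.2, 178.0 and 160.9 CPM in SW-113 libraries (log2 fold change 0.0048, 95% interval -0.11 to 0.12). ZNF622 averaged 63.93 ± 5.2 CPM in SW-138 cells and 64.26 ± 1.88 CPM in SW-113 cells (SD, n = 3 each). ZNF638, an RNA-binding protein that also works with the HUSH silencing complex, was at 0.10 (95% interval -0.04 to 0.24), and ZNF706 at -0.11 (-0.23 to 0.01).

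By CPM alone, ZNF121, ZNF770 and ZNF451 completed the 5 highest after ZNF207 and ZNF598. ZNF121 had 171.8, 152.4 and 154.8 CPM in SW-138 libraries and 147.3, 146.4 and 142.1 CPM in SW-113 libraries. The groups did not overlap, and the adjusted p was 0.191 (edgeR quasi-likelihood test). ZNF770 averaged 142.5 ± 8.41 CPM in SW-138 cells and 154.3 ± 9.46 CPM in SW-113 cells (SD, n = 3 each). With length and GC trends removed, ZNF770 was lower by -0.21 and passed edgeR's test (adjusted p = 0.0314), against -0.11 and an adjusted p of 0.322 as fitted. ZNF451, a SUMO ligase, averaged 139.9 ± 6.69 CPM in SW-138 cells and 132.2 ± 8.62 CPM in SW-113 cells (SD, n = 3 each), and neither ZNF121 nor ZNF451 passed the test.

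Of the 104 genes with a KRAB match, here called KRAB genes, 1 was higher and 0 were lower (0.962%). They had a median log2 fold change of 0.056, with 72.1% above 0. The 141 tested ZNF genes under 10 CPM with a KRAB match had a median of 0.048, with 60.3% above 0. The 104 genes without a KRAB match held 5 higher and 3 lower (7.69%), a median of 0.003 and 51.0% above 0. A gene whose box the search missed would stand among the latter. Of all tested genes at 10 CPM or more, 10.3% were called. Over all 209 the median was 0.03, over all tested genes 0.007 and over genes at 10 CPM or more -0.007. Without SW-138 replicate 2 the KRAB median was 0.02, with 58.7% above 0. In that library the KRAB genes lay a median of 0.073 above their own mean (log2 of CPM + 0.5), where the other SW-138 libraries lay at 0.004 and -0.001 and the SW-113 libraries at -0.047, 0.004 and -0.045. It was the highest library for 69 of the 209 genes. Whether this library's place on the first component has a part in the result was not tested.

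**Figure D3:**
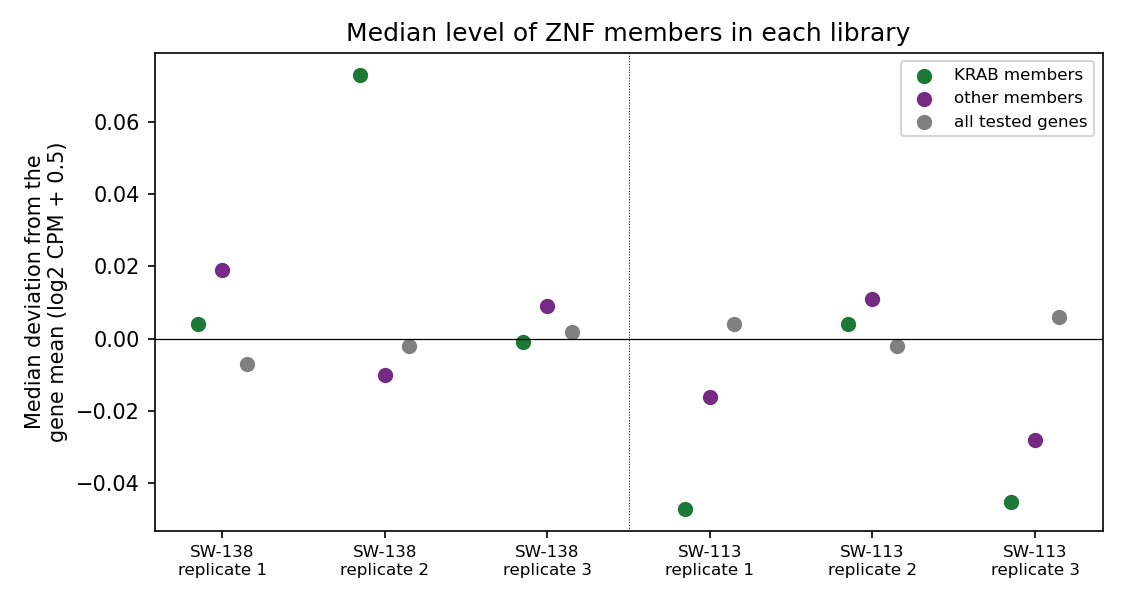
Median deviation of ZNF genes from each gene's mean over the 6 libraries (log2 of CPM + 0.5, vertical axis) in each library, SW-138 libraries to the left, for genes with a KRAB match (green), other ZNF genes (purple) and all tested genes (grey). The KRAB genes stand at 0.073 in SW-138 replicate 2, and the groups overlap because SW-138 replicate 3 (-0.001) lies below SW-113 replicate 2 (0.004).

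Summed over the 209 genes, the libraries held 7131, 7283 and 7062 CPM with SW-138 and 6934, 7127 and 6919 CPM with SW-113, and SW-113 replicate 2 fell among the SW-138 values. As a share of total counts with no TMM factor, the ZNF genes took 0.734%, 0.751% and 0.709% with SW-138 and 0.68%, 0.695% and 0.676% with SW-113, with no overlap. The scaling thus set whether the groups overlapped: with total-count scaling the median log2 fold change was 0.095 for the 209 genes and 0.071 for all tested genes.

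Fold changes followed transcript length, among ZNF genes as among all genes. In tertiles of all tested genes (up to 2040 bases, up to 3802 bases and above), the 15 short ZNF genes had a median log2 fold change of -0.098 with 0 higher and 2 lower, the 81 of middle length 0.019 with 1 higher and 1 lower, and the remaining long ones 0.057 with 5 higher and 0 lower. All tested genes had medians of -0.06, 0.01 and 0.042 in the same tertiles, with 65 higher and 426 lower among the short and 248 higher and 93 lower among the long. From short to long, 13.3%, 2.47% and 4.42% of the ZNF genes were called, against 8.77%, 5.63% and 6.1% of all tested genes. Across the 209 genes, which share the same 6 libraries, Pearson's r of log2 fold change with log2 length was 0.26 and Spearman's rho 0.22. ZNF transcripts had a median length of 3980 bases against 2776 bases for all tested genes. With the trends on length and GC removed, the medians were 0.019 for KRAB genes, 0.001 for the others, 0.007 for all 209 and -0.022 for all genes at 10 CPM or more.

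**Figure D4:**
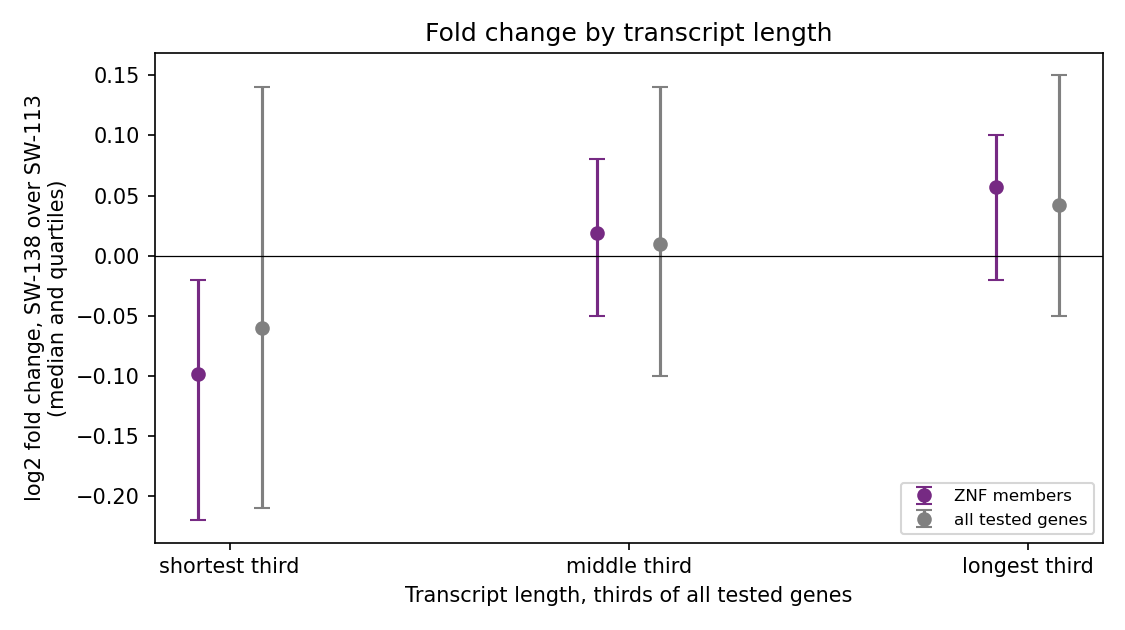
Median and quartiles of the log2 fold change (SW-138 over SW-113, vertical axis) in tertiles of transcript length for ZNF genes (purple) and all tested genes (grey). Both sets go up with length, the ZNF genes through medians of -0.098, 0.019 and 0.057.

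**Figure D5:**
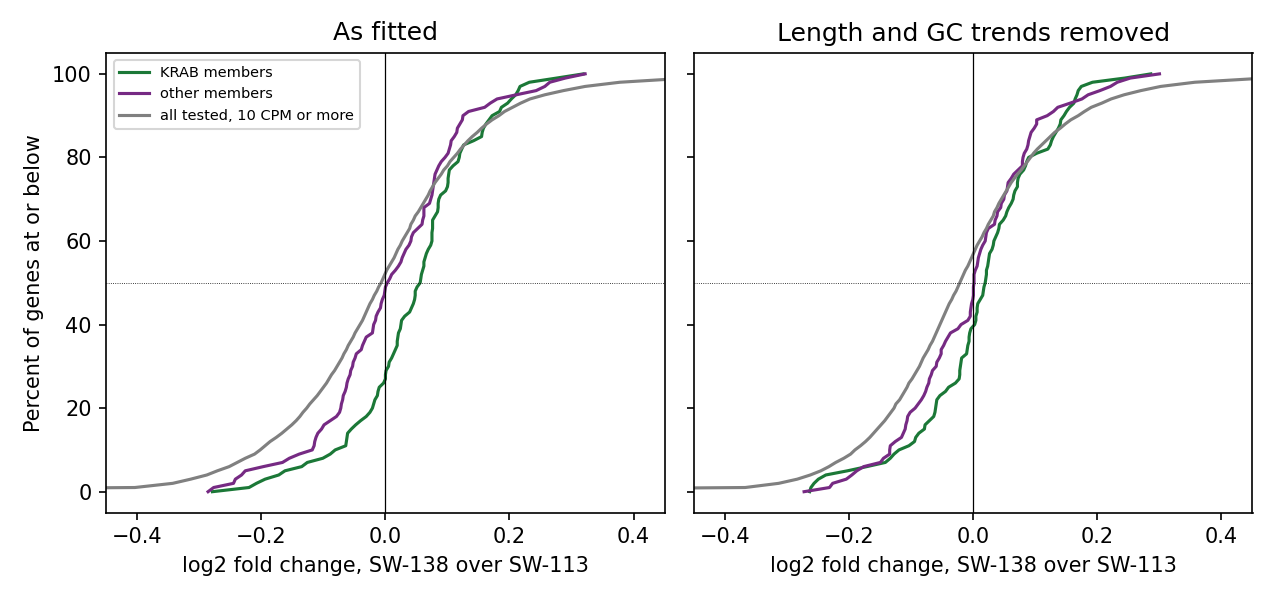
Percent of genes (vertical axis) at or below each log2 fold change (SW-138 over SW-113, horizontal axis) for KRAB genes (green), other ZNF genes (purple) and all tested genes at 10 CPM or more (grey), as fitted and with length and GC trends removed. The KRAB curve crosses 50% at 0.056 as fitted and at 0.019 with the trends removed.

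On chromosome 19, the 79 ZNF genes had 2 higher and 2 lower (5.06%) and a median of 0.048. The 130 on other chromosomes had 4 higher and 1 lower (3.85%) and a median of 0.024. Of all tested genes 6.82% were called, and of those at 10 CPM or more 10.3%. Chromosome 19 was split where neighbours lay over 1000000 bases apart. It held a distal run from ZNF628 to ZNF444 (55476332 to 56160893) in which 0 of 7 genes were above 0, with a median of -0.081. This run had no gene with a KRAB match, a median length of 2042 bases and a median transcript GC of 68.6%. The overlapping ZNF580 and ZNF581 are both counted in it. With length and GC trends removed the median of this run was 0.007, with 5 of 7 above 0. The runs on either side were rich in KRAB genes. From ZNF175 to ZNF761 (51571298 to 53458261), where all 12 genes had a KRAB match, 9 were above 0 and the median was 0.06, and ZNF83 lies there. With the trends removed its median was 0.013, with 8 of 12 above 0. In the telomeric run from ZNF264 to ZNF446 (57191500 to 58481230), with 20 KRAB genes among 23, 14 were above 0 and the median was 0.028. With the trends removed that median was 0.025, with 13 of 23 above 0. No gene of that last run passed edgeR's test in either direction. The other runs of 3 or more genes changed to differing degrees with the trends removed. From ZNF317 to ZNF562 (6 genes) the median went from 0.06 to 0.044, and from ZNF627 to ZNF791 (3 genes) from 0.164 to 0.141. From ZNF146 to ZNF420 (7 genes) it went from 0.075 to 0.009, and from ZNF283 to ZNF180 (10 genes) from 0.022 to -0.019. Runs of 1 or 2 genes are not listed.

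The partners through which KRAB proteins act were called at about the rate of other genes of their level. Of 34 genes for TRIM28, its cofactors and heterochromatin factors, 0 were higher and 4 lower (11.8%, against 10.3% of all tested genes at 10 CPM or more and 6.82% of all tested genes), with a median log2 fold change of -0.026. DNMT1, the maintenance DNA methyltransferase, named after its values were seen, had 194.3, 177.0 and 192.8 CPM in SW-138 libraries and 164.1, 145.9 and 168.3 CPM in SW-113 libraries. It just missed the threshold (log2 fold change 0.24, adjusted p = 0.0562, edgeR quasi-likelihood test) and passed as higher in 10 of 11 fits with other settings and all libraries, but in 1 of 6 that left out a library. TRIM28 itself had 504.3, 505.6 and 520.4 CPM in SW-138 libraries and 520.4, 529.0 and 549.8 CPM in SW-113 libraries (log2 fold change -0.06, 95% interval -0.16 to 0.03), and did not pass. SETDB1 had 41.57, 40.62 and 44.86 CPM in SW-138 libraries and 38.92, 39.2 and 41.27 CPM in SW-113 libraries, with overlap (log2 fold change 0.09, 95% interval -0.04 to 0.22).

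RESF1 (listed as KIAA1551), a regulator of SETDB1 in retroelement silencing, had 50.04, 54.97 and 47.06 CPM in SW-138 libraries, against 66.62, 79.11 and 64.47 CPM in SW-113 libraries. It was lower by -0.47 ± 0.08 (adjusted p = 0.011, edgeR quasi-likelihood test), and in the fits that left out a library it ran from -0.53 to -0.37. EHMT2, the H3K9 methyltransferase G9a, had 52.05, 50.8 and 53.3 CPM in SW-138 libraries, against 60.43, 61.8 and 64.33 CPM in SW-113 libraries (log2 fold change -0.26 ± 0.05, adjusted p = 0.0156, edgeR quasi-likelihood test). All SW-138 values lay below all SW-113 values in both genes. SUMO2, the modifier that TRIM28 attaches to itself to recruit partners, had 108.0, 107.8 and 112.6 CPM in SW-138 libraries, against 127.8, 120.8 and 136.8 CPM in SW-113 libraries. MTA1, a NuRD subunit, had 126.5, 119.1 and 126.8 CPM in SW-138 libraries, against 140.0, 140.4 and 143.6 CPM in SW-113 libraries. Their log2 fold changes were -0.23 and -0.19, with adjusted p of 0.0379 and 0.0476 in edgeR's quasi-likelihood test. Without SW-138 replicate 1 or 3 or SW-113 replicate 3, 1 of the 34 genes passed, and without SW-113 replicate 1 or 2, 2 did. The split by direction also moved with the settings. With total-count scaling 1 of the 34 was higher and 2 were lower. With DESeq2 size factors, or with length and GC trends removed, 1 was higher and 3 were lower. Upper-quartile scaling gave 1 higher and 4 lower, and limma-voom 0 and 4. The higher gene was DNMT1 in each of these.

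Zinc finger genes outside the 209 were counted as well. Of 191 ZNF genes under 10 CPM that could be tested, 0 passed edgeR's test, against 6.82% of all tested genes. At 10 CPM or more 10.3% passed, so the share over all tested genes is no like background for genes under 10 CPM. At an unadjusted p under 0.05 stood 16 of the 191. Of all tested genes 22.3% did, and of those at 10 CPM or more 29.4%, so this share is likewise no like background. Their median log2 fold change was 0.028, and their median standard error was 0.138 against 0.071 for the well-expressed genes. DESeq2 and limma-voom also called 0 of the 191. Of 79 genes with ZBTB, ZSCAN, ZKSCAN or ZFP symbols, ZBTB21 and ZFP36L1 were higher (2.53%) and 0 were lower. Their log2 fold changes were 0.25 and 0.19. ZFP36L1 is a CCCH protein that promotes mRNA decay and came in by its symbol alone. ZBTB21 had 56.42, 58.82 and 55.07 CPM in SW-138 libraries, against 46.9, 49.69 and 46.97 CPM in SW-113 libraries (adjusted p = 0.0215, edgeR quasi-likelihood test). ZFP36L1 had 230.8, 228.0 and 228.3 CPM in SW-138 libraries, against 200.9, 203.3 and 199.5 CPM in SW-113 libraries (adjusted p = 0.037, edgeR quasi-likelihood test). The groups did not overlap in either gene, and without SW-138 replicate 1, SW-113 replicate 1 or SW-113 replicate 3, 0 of the 79 passed.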

How the data were processed

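RNA-seq of 6 HT1080 libraries was analysed, 3 per compound, from the table of expected counts the authors deposited, which has 0 columns of other samples. Per the submitters' processing notes, RSEM 1.3.3, Bowtie2 2.5.4, Trimmomatic 0.39 and DESeq2 1.42.0 were used with build GRCh38, in roles the notes leave unstated. Annotation and strand setting are not given in the sources used here, so overlapping genes on opposite strands may share reads.

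Expected counts were rounded to whole numbers, filtered with filterByExpr, scaled by TMM and tested over 16905 genes with the edgeR 4.0.16 quasi-likelihood test (SW-138 over SW-113, compound as the sole term, Benjamini-Hochberg threshold of 0.05). Standard errors and 95% intervals used limma-voom (limma 3.58.1, R 4.3.3). The biological coefficient of variation was 7.56%. Positions, gene types, transcript length and GC came from GENCODE 29 (transcript of the longest coding sequence). Fingers and KRAB and SCAN boxes were searched in translated GENCODE coding sequences, where RefSeq proteins had been planned. Promoters came from RefSeq (GRCh38.p14).

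The genes, lists, roles and alternatives were chosen with earlier results of these data known. Named genes were up to 15 per direction past the threshold, the 5 highest by CPM, 3 on each side of the 10 CPM threshold and 19 of known role, and of the cofactors those past the threshold, TRIM28 and SETDB1. Any other gene named was chosen after its values were seen. Alternatives were other scalings, filters and thresholds, DESeq2, limma-voom, a replicate block, removal of length and GC trends or of stable noncoding and mitochondrial genes, and leaving out each library.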

Additional observations from a re-analysis of the deposited data

How the results depend on the processing

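With 3 libraries per compound, small differences decide calls, and most of the calls were lost in fits without 1 library. The 9 calls among the ZNF genes became 15 with a filter of 1 count in 1 library, 15 at an adjusted threshold of 0.1, 19 with a replicate block, 16 with length and GC trends removed and the block, and 0 to 10 without 1 library. All tested genes gave 2060, 2012, 2363, 2196 and 303 to 1616 calls under the same settings. With the block 14.0% of all tested genes passed, 11 of the 19 ZNF genes higher and 8 lower. The sources give no pairing of libraries, so the numbers were not taken as pairs. Correlations of same-numbered libraries were 0.049, 0.206 and 0.051. Of the SW-138 libraries, only replicate 2 correlated best with its own number in SW-113. Whether same-numbered libraries share a source of variation was not tested. Cofactor calls were 1 to 4 without 1 library. The ZNF genes under 10 CPM had 1 call with total-count scaling, with the looser filter, with the block, with trends removed and the block, and at 0.1, and 0 to 2 without 1 library. Genes with other zinc finger symbols had 5 with trends removed and the block, 4 at 0.1 and 0 to 4 without 1 library. The median of the 209 genes was 0.095 with total-count scaling, 0.007 with trends removed and 0.011 to 0.049 without 1 library.

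Over all 209 genes, 61.2% were above 0 as fitted, 81.8% with total-count scaling and 56.5% with length and GC trends removed. Signs of single genes were compared for 41 named ZNF genes and cofactors only, and there turned only for uncalled genes near 0. With total-count scaling these were ZNF606 (0.06), ZNF761 (0.02), ZNF362 (0.01), ZNF143 (0.05), ZNF148 (0.03), ZNF384 (0.01), ZNF609 (0.01), ZNF622 (0.06), ZNF687 (0.00047) and TRIM28 (0.0003). With upper-quartile scaling they were ZNF606 (0.0031) and ZNF622 (4.4e-05), with the 5 CPM filter ZNF606 (0.0046) and ZNF622 (0.0016), and with DESeq2 size factors and DESeq2 ZNF606 (0.0012 and 0.0017). With trends removed, without and with the block, they were ZNF592 (-0.0019 and -0.00068) and ZNF622 (0.01 and 0.01). Without 1 library, ZNF598 ran from -0.03 to 0.04, ZNF606 ran from -0.05 to 0.08, ZNF761 ran from -0.18 to 0.05, ZNF362 ran from -0.15 to 0.1, ZNF143 ran from -0.06 to 0.01, ZNF384 ran from -0.12 to 0.01, ZNF410 ran from -0.02 to 0.04, ZNF592 ran from -0.01 to 0.04, ZNF609 ran from -0.09 to 0.00093 and ZNF622 ran from -0.06 to 0.05. The causes were not tested.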

Other observations

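By number of fingers, the 15 ZNF genes with under 2 matches had 1 higher and 1 lower gene (13.3%) and a median log2 fold change of -0.008. The 82 with 2 to 9 fingers had 3 higher and 2 lower (6.1%) and a median of 0.023. The 111 with 10 or more had 2 higher and 0 lower (1.8%) and a median of 0.049. Of all tested genes at 10 CPM or more, 10.3% were called. The 14 SCAN genes had 0 calls by edgeR and a median of 0.028. After ZNF469, ZNF460 varied most between libraries of a compound (pooled coefficient of variation 17.2%), with 53.35, 80.21 and 59.2 CPM in SW-138 libraries and 64.07, 76.16 and 64.13 CPM in SW-113 libraries. Its high values were replicate 2 of each compound. It was chosen after its values were seen.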
